A study of Mus musculus with 2 samples.

Results

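The genes described here move iron into cells, hold it and let it out: Tfrc, Slc11a2, Steap3 and Hfe for uptake, Fth1 and Ftl1 for storage, Slc40a1 for export, and Aco1 and Ireb2 for their control. They are 9 of the 30970 genes counted, chosen by name, and all 9 had at least 1 unique molecular identifier (UMI, a tag that counts each captured RNA molecule once). The cells came from mouse yolk sacs at stage E8.75, from a study that set ciliated cell types against the visceral endoderm lineage. All animals carried Ttr-Cre/+ and R26lsl-rtTA-EGFP/+, so a Cre driven by Ttr (a gene of the visceral endoderm) acts on a reporter in every sample, and there was no other genotype and no treated group. Cells of 3 samples had been tagged before pooling, and their counts are kept apart here as tagged samples 1, 2 and 3.

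Cells take up iron mostly as iron bound to the plasma protein transferrin, which the transferrin receptor carries into endosomes. There a reductase frees the iron and a transporter passes it to the cytosol, where it goes to mitochondria for haem and iron-sulphur clusters or into ferritin shells, while ferroportin is the known route out. Iron regulatory proteins bind iron-responsive elements (short RNA hairpins) when iron is scarce, which blocks translation where the hairpin lies in the 5′ untranslated region (UTR) and stabilises the messenger RNA where it lies in the 3′ UTR. The visceral endoderm of the yolk sac takes up nutrients for the embryo, and primitive erythroid cells, the first red blood cells, make haemoglobin, which needs iron.

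Cells were placed in 4 classes by the share of their UMIs from a few genes. Endoderm cells had at least 0.3% from Ttr, Apob and Apom, and erythroid cells at least 3% from 7 globin genes. Endothelium had at least 0.04% from Cdh5, Ctla2a and Plvap, and mesoderm at least 0.03% from Hand1, Vcan and Foxf1. Of 1740 cells kept, 559 were endoderm, 629 erythroid, 115 endothelium and 199 mesoderm, while 188 met no rule and 50 met more than 1 and were left out. The median cell held 56338 UMIs in endoderm, 47771 in erythroid cells, 35699 in endothelium and 34959 in mesoderm. Summed levels of other markers were highest in the class they name. The 8 visceral endoderm markers summed to 19257 to 24985 CPM (counts of UMIs per 1000000 UMIs of a class in a tagged sample) in endoderm and to at most 722 in the other classes, and 7 primitive erythroid markers summed to 727 to 913 in erythroid cells and to at most 148 elsewhere. The 7 endothelium markers summed to 1210 to 1298 in endothelium and to at most 161 elsewhere, and the 7 mesoderm markers to 478 to 801 in mesoderm and to at most 64.0 elsewhere. Of these 7, Pdgfra alone was higher in another class, at 22.3 in endoderm against 16.9 in mesoderm. The 5 parietal endoderm markers summed to 138 to 156 in endoderm and to 103 to 296 in mesoderm, and their part in the values of those classes was not tested. Endothelium also held blood markers. The 4 megakaryocyte markers summed to 41.6 to 61.8 there and to at most 20.4 elsewhere. The 5 macrophage markers summed to 1.78 to 42.4 there and to at most 1.56 elsewhere. The part of such cells in the endothelium values was not tested. Each tagged sample held cells with Xist and cells with Y-linked UMIs (190 and 151 cells, 263 and 180, 221 and 350), although the design text speaks of 3 embryos, so it remains unsettled how many embryos each one stands for. The p-values below therefore measure the spread between 3 tagged samples.

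The hairpin loops of known elements are shown first, because they divide the genes in which they were found into groups under opposite known control. A search of GENCODE transcripts (GRCm38) for a C, any 5 bases, the loop CAGTGN with a last base other than G, and 5 bases that pair with the first 5, read on the transcript's strand only, found the pattern in 4 of the 9 genes. Fth1, Ftl1 and Slc40a1 each had 1 match in the 5′ UTR, and Tfrc had 4 in the 3′ UTR, all in exon 19. The loop is in capitals.
Tfrc 3′ UTR, chr16:32631219-32631246, plus strand: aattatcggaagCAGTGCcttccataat
Tfrc 3′ UTR, chr16:32631598-32631625, plus strand: cattatcgggagCAGTGTcttccataat
Tfrc 3′ UTR, chr16:32631663-32631690, plus strand: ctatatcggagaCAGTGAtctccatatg
Tfrc 3′ UTR, chr16:32631710-32631737, plus strand: aattatcgggaaCAGTGTttcccataat
Fth1 5′ UTR, chr19:9982732-9982759, plus strand: ttcctgcttcaaCAGTGCttgaacggaa
Ftl1 5′ UTR, chr7:45459780-45459807, minus strand: gtcttgcttcaaCAGTGTttgaacggaa
Slc40a1 5′ UTR, chr1:45925466-45925493, minus strand: caacttcagctaCAGTGTtagctaagtt
Across all genes the pattern occurred in the 5′ UTR of 23 of 20899 genes (0.110%) and in the 3′ UTR of 100 of 21028 (0.476%). No match was found in Slc11a2, Steap3, Hfe, Aco1 or Ireb2, which says only that this exact pattern is not in their annotated UTRs. The search also found 0 matches in either UTR of Epas1, a transcript known for an iron-responsive element. It can therefore miss known elements, and these 5 genes may carry an element of another form. For the same reason the 4 genes with a match may carry more elements than those listed. The counts below are of messenger RNA, so they do not show translation.

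In these yolk sacs the uptake genes Tfrc and Steap3 were highest in erythroid cells, the ferritin genes and the exporter Slc40a1 in endoderm, and Aco1 was lowest in erythroid cells. In the comparison of erythroid cells with endoderm, 2 of 8 tested genes were higher (Tfrc and Steap3) and 5 lower (Fth1, Ftl1, Slc40a1, Aco1 and Ireb2). Over all 10991 genes tested, 34.7% were higher and 38.6% lower in that comparison, so a call alone is common and the size of a difference says more. Against endothelium, erythroid cells had 5 of the 8 higher and 1 lower (background 29.4% and 31.2%), and against mesoderm 5 higher and 3 lower (31.3% and 34.7%). Endothelium had none higher and 5 lower than endoderm (29.2% and 31.8%), and mesoderm 1 higher and 4 lower (30.7% and 33.1%). Mesoderm had 2 higher and 1 lower than endothelium (17.6% and 18.9%). The median log2 difference of the 8 genes was -0.34, 0.89, 1.25, -1.01, -0.81 and 0.35 in these comparisons in turn, beside medians between -0.03 and 0.04 over all genes. Hfe did not pass the filter on low counts and was not tested.

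**Figure D1:**
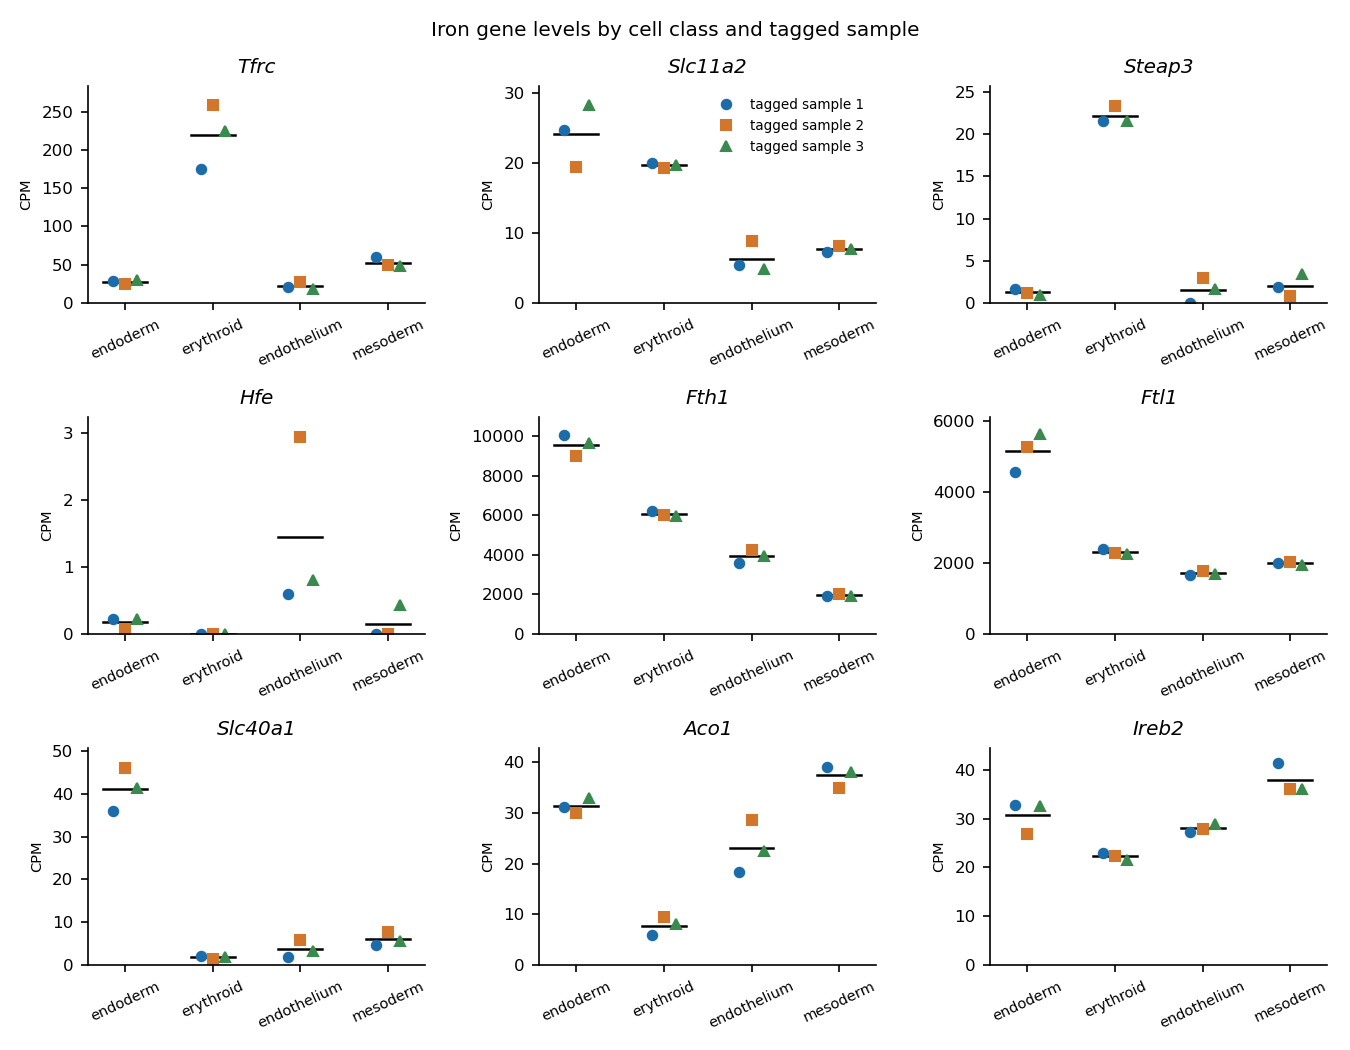
CPM (y axis, linear from 0, own scale per gene) of the 9 iron genes in 4 cell classes (x axis). Each point is 1 tagged sample and each black line the mean of 3. Tfrc and Steap3 stand highest in erythroid cells, and Fth1, Ftl1 and Slc40a1 in endoderm.

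Tfrc encodes the transferrin receptor. Its level in erythroid cells was 174, 258 and 225 CPM in tagged samples 1, 2 and 3. In mesoderm it was 60.5, 49.4 and 47.5, in endoderm 28.2, 24.3 and 29.2, and in endothelium 20.8, 27.2 and 18.4. The erythroid samples were all above every other sample and the mesoderm samples came next, while endoderm and endothelium overlapped. The mean in erythroid cells was 8.05 times that in endoderm, 9.90 times that in endothelium and 4.18 times that in mesoderm. On the fitted scale the log2 difference from endoderm was 3.25 (SE 0.14, edgeR adjusted p = 2.53e-12). It was 3.68 (SE 0.19) from endothelium and 2.55 (SE 0.15) from mesoderm. Mesoderm was higher than endoderm by 0.70 (SE 0.17, edgeR adjusted p = 0.00149) and higher than endothelium by 1.13 (SE 0.23, adjusted p = 0.000905). With the class limits doubled, erythroid cells and mesoderm exceeded endothelium by 4.40 and 1.80. Endothelium and endoderm differed by -0.43 (95% interval -0.91 to 0.05, edgeR adjusted p = 0.109), which did not pass the threshold. That difference did pass with the class limits doubled (-1.11, adjusted p = 0.00247), without tagged sample 2 (-0.66, adjusted p = 0.0352) and with no filter on low counts (-0.50, adjusted p = 0.00761). Erythroid cells held 84.5% of all Tfrc UMIs of the 4 classes.

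Tfrc was found in nearly every erythroid cell. With every cell thinned to 20000 UMIs, 97.6% of 616 erythroid cells had a Tfrc UMI (95% exact binomial interval 96.0 to 98.6). The share was 55.7% of 174 mesoderm cells (48.0 to 63.3), 38.2% of 511 endoderm cells (33.9 to 42.5) and 29.8% of 84 endothelium cells (20.3 to 40.7). Unthinned, the shares were 98.6%, 69.3%, 64.9% and 35.7%. The median erythroid cell had 10 Tfrc UMIs, with quartiles of 7 and 15, and the median was 1 in endoderm and mesoderm and 0 in endothelium. As a measure of erythroid RNA in the other classes, the 7 primitive erythroid markers stood in endoderm at 2.58% to 4.70% of their erythroid level (median 4.61%), and Tfrc at 12.4%. In endothelium those markers were at 4.08% to 45.8% (median 9.24%) and Tfrc at 10.1%, with none of the 7 at 0. The part of erythroid RNA in the Tfrc levels of these classes was not tested.

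Steap3 encodes an endosomal ferrireductase that works with the transferrin cycle in red cell precursors. It was at 21.5, 23.3 and 21.6 CPM in erythroid cells, against 1.68, 1.18 and 0.872 in endoderm. It was at 0, 2.94 and 1.60 in endothelium and at 1.82, 0.778 and 3.39 in mesoderm. The 3 erythroid samples lay together and far above all others, and the other classes overlapped. The fitted log2 difference was 4.37 from endoderm (SE 0.26, edgeR adjusted p = 1.17e-10), 4.33 from endothelium (SE 0.43) and 3.95 from mesoderm (SE 0.34). The value for endothelium rests on 6 UMIs there, and it moved to 5.41 with the class limits doubled, to 3.69 without tagged sample 1 and to 5.28 without tagged sample 2, while that for mesoderm moved to 4.58 without tagged sample 3. From pooled counts, 705 in erythroid cells and 40 in endoderm, the ratio was 18.0 (95% exact interval 13.1 to 25.5, counting error only). It was 15.9 (7.25 to 43.4) against endothelium and 11.3 (6.68 to 20.7) against mesoderm. Its mean in endoderm was 5.61% of the erythroid level, beside 2.58% to 4.70% for the erythroid markers, and the part of erythroid RNA in it was not tested. Thinned, 36.9% of erythroid cells had a Steap3 UMI (95% exact interval 33.0 to 40.8), against 2.35% to 4.02% of cells in the other classes. The erythroid share was 29.5%, 40.8% and 36.1% by tagged sample, a spread that the interval leaves out.

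Slc11a2 encodes DMT1, the transporter that moves ferrous iron out of endosomes and across the apical membrane of absorptive cells. Its levels were 24.6, 19.3 and 28.3 CPM in endoderm and 19.9, 19.3 and 19.7 in erythroid cells. In mesoderm they were 7.28, 8.17 and 7.63, and in endothelium 5.34, 8.82 and 4.80. Endoderm and erythroid cells overlapped, mesoderm and endothelium overlapped, and the first pair lay above the second in every sample. Erythroid cells and endoderm differed by -0.06 on the fitted scale (95% interval -0.35 to 0.23, edgeR adjusted p = 0.829). Endoderm exceeded endothelium and mesoderm, which differed from it by -2.06 (SE 0.24, edgeR adjusted p = 1.1e-06) and -1.88 (SE 0.20). Erythroid cells exceeded them by 2.0 (SE 0.25) and 1.82 (SE 0.20). Tfrc and Steap3, by comparison, were both far lower in endoderm than in erythroid cells.

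Hfe encodes a membrane protein that binds the transferrin receptor and takes part in iron sensing. It gave 12 UMIs in all: 5 in endoderm, 6 in endothelium, 1 in mesoderm and 0 in erythroid cells. The endothelium UMIs came as 1, 4 and 1 from the 3 tagged samples, so tagged sample 2 gave most of them. A count of 0 in the pooled erythroid cells allows up to 0.0943 CPM. Pooled, Hfe was 9.09 times as frequent in endothelium as in endoderm (95% exact interval 2.31 to 37.7), and the gene was too rare for a test across samples.

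Fth1 encodes ferritin heavy chain, which oxidises iron as it enters the shell. It had a UMI in each of the 1502 classed cells. Its level was 10047, 8998 and 9653 CPM in endoderm, and 6209, 6021 and 5948 in erythroid cells. It was 3591, 4231 and 3953 in endothelium and 1908, 2031 and 1894 in mesoderm. No 2 classes overlapped, so the order was endoderm, erythroid cells, endothelium, mesoderm, and each step of that order passed the test. Erythroid cells were lower than endoderm, at -0.44 (SE 0.06, edgeR adjusted p = 2.07e-06), and higher than endothelium by 0.98 (SE 0.06). Mesoderm was lower than endothelium, at -1.12 (SE 0.06), and lower than endoderm, at -2.55 (SE 0.06, edgeR adjusted p = 1.06e-14). The median endoderm cell held 530 Fth1 UMIs and the median mesoderm cell 57.

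Ftl1 encodes ferritin light chain, which helps form the mineral core. Its level was 4559, 5260 and 5619 CPM in endoderm and 2382, 2268 and 2249 in erythroid cells. It was 1998, 2010 and 1936 in mesoderm and 1656, 1761 and 1682 in endothelium. The endoderm samples were all above those of any other class, and the other 3 classes lay close together without overlap. Erythroid cells differed from endoderm by -0.95 (SE 0.07, edgeR adjusted p = 9.72e-10), mesoderm by -1.63 (SE 0.07) and endothelium by -1.74 (SE 0.07). Erythroid cells exceeded endothelium by 0.79 and mesoderm by 0.68 (SE 0.07 for both). With library size scaling alone, which keeps the shift of the median gene between classes, these differences were 0.43 and 0.21 (SE 0.06 for both). Both still passed, but their size depended on the scaling. Mesoderm and endothelium differed by 0.11 (95% interval -0.03 to 0.25, edgeR adjusted p = 0.222). The pseudogene Ftl1-ps1, a near copy, had 42.7 ± 5.59 CPM in endoderm and 21.4 ± 0.544 in erythroid cells (SD, n = 3), so a small part of the Ftl1 molecules may have been counted there or dropped as ambiguous.

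The ferritin chains did not keep the same proportion in every class. There were 2.20, 1.71 and 1.72 Fth1 UMIs per Ftl1 UMI in endoderm and 2.61, 2.66 and 2.64 in erythroid cells. In endothelium the ratio was 2.17, 2.40 and 2.35, and in mesoderm 0.955, 1.01 and 0.979. Mesoderm lay below all other classes and erythroid cells above them, and only endothelium and endoderm overlapped. Each difference without overlap had a two-sided exact permutation p = 0.1, the smallest that 3 against 3 samples allow. Since capture can differ between genes, the ratio is compared across classes and does not give the make-up of ferritin.

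**Figure D2:**
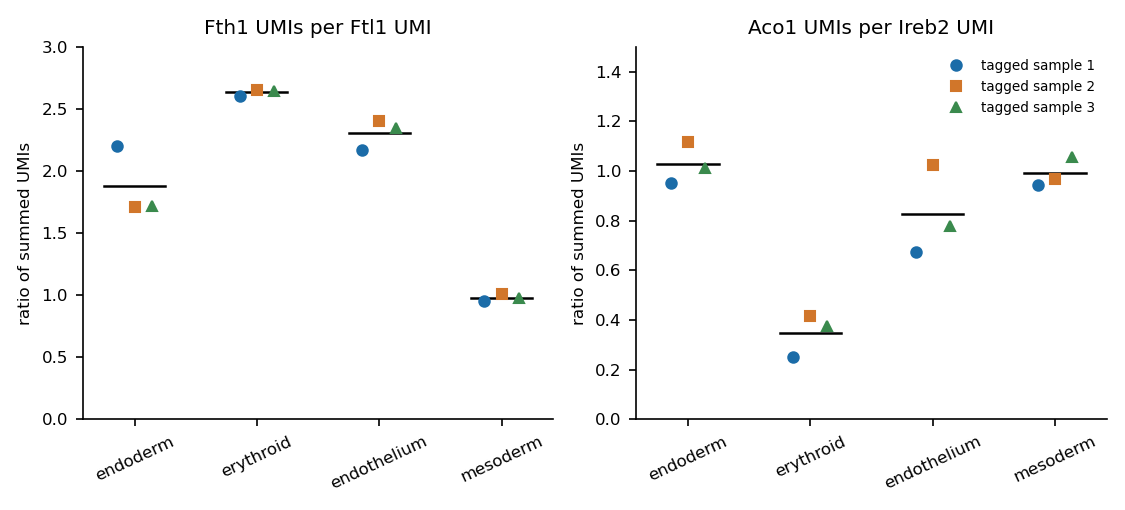
Ratio of summed UMIs (y axis, from 0) of Fth1 to Ftl1 (left) and of Aco1 to Ireb2 (right) in 4 cell classes. Each point is 1 tagged sample and each black line the mean of 3. Mesoderm is near 1 on the left, and erythroid cells are lowest on the right.

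Slc40a1 encodes ferroportin, the iron exporter. Its level was 35.9, 46.1 and 41.4 CPM in endoderm. It was 4.55, 7.78 and 5.51 in mesoderm, 1.78, 5.88 and 3.20 in endothelium, and 2.08, 1.40 and 1.79 in erythroid cells. Every endoderm sample was far above every other sample, and endothelium overlapped with both mesoderm and erythroid cells. The fitted log2 difference from endoderm was -4.36 in erythroid cells (SE 0.21, edgeR adjusted p = 5.12e-12). It was -3.69 in endothelium (SE 0.28) and -3.02 in mesoderm (SE 0.22). When all sums were thinned to equal depth the erythroid value was -3.77. Erythroid cells were also lower than mesoderm, at -1.33 (SE 0.32, edgeR adjusted p = 0.00151), a call lost when all sums were thinned to equal depth (-1.12, adjusted p = 0.0644). Endoderm held 92.4% of the Slc40a1 UMIs of the 4 classes, and its pooled level was 24.7 times that of erythroid cells (95% exact interval 18.8 to 33.1).

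The Slc40a1 UMIs outside endoderm were few. Visceral endoderm markers appeared in erythroid cells at 1.46% to 2.34% of their endoderm level (median 1.91%), and Slc40a1 at 4.27%. In mesoderm they appeared at 1.76% to 9.16% (median 2.44%) and Slc40a1 at 14.5%, and in endothelium at 1.74% to 9.82% (median 2.07%) and Slc40a1 at 8.80%. None of the 8 markers was at 0 in any class, and their part in these low Slc40a1 levels was not tested. Thinned to 20000 UMIs, 56.4% of endoderm cells had a Slc40a1 UMI (95% exact interval 51.9 to 60.7), against 2.60% of erythroid cells (1.49 to 4.18). By tagged sample the thinned shares were 48.3%, 60.1% and 59.2% in endoderm and 3.85%, 1.94% and 2.71% in erythroid cells, a spread that the intervals leave out. Unthinned, the shares were 81.0% and 7.63%.

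Aco1 encodes the cytosolic aconitase that also serves as iron regulatory protein 1. Its level was 39.1, 35.0 and 38.2 CPM in mesoderm and 31.2, 30.0 and 33.0 in endoderm. It was 18.4, 28.7 and 22.4 in endothelium and 5.79, 9.34 and 8.10 in erythroid cells. Erythroid cells lay below all other samples, endothelium came next, and mesoderm and endoderm were highest. Erythroid cells differed from endoderm by -1.72 (SE 0.15, edgeR adjusted p = 1.2e-08), from mesoderm by -1.73 (SE 0.17) and from endothelium by -1.13 (SE 0.20, adjusted p = 0.000119). Mesoderm lay above endoderm in CPM, but on the fitted scale, which takes out the shift of the median gene, they differed by 0.00 (95% interval -0.31 to 0.31, edgeR adjusted p = 0.992). Endothelium was lower than endoderm, at -0.59 (adjusted p = 0.00835), a call lost on leaving out tagged sample 3 (-0.55, adjusted p = 0.0966) or thinning the sums (-0.54, adjusted p = 0.0571). It was also lower than mesoderm, which exceeded it by 0.59 (adjusted p = 0.0225). That call was lost without tagged sample 1 (0.40, adjusted p = 0.153), without tagged sample 3 (0.58, adjusted p = 0.154) and with thinned sums (0.54, adjusted p = 0.0764).

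Ireb2 encodes iron regulatory protein 2. Its level was 41.4, 36.2 and 36.0 CPM in mesoderm and 32.8, 26.8 and 32.6 in endoderm. It was 27.3, 27.9 and 28.8 in endothelium and 22.9, 22.4 and 21.5 in erythroid cells. It varied least of the tested genes, with its lowest class at 58.8% of its highest in CPM. Erythroid cells were lower than endoderm, at -0.24 on the fitted scale (95% interval -0.46 to -0.02, edgeR adjusted p = 0.0460), and lower than mesoderm, at -0.29 (adjusted p = 0.0361). The first call was lost on leaving out each of the 3 tagged samples in turn (-0.17, -0.33 and -0.18, adjusted p = 0.198, 0.0574 and 0.314) and with the tagged sample as a block (-0.23, adjusted p = 0.0501), and the second likewise on leaving out each of the 3 (-0.19, -0.35 and -0.33, adjusted p = 0.248, 0.0838 and 0.119). The other 4 differences of Ireb2 did not pass.

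The ratio between the 2 iron regulatory protein genes was lowest in erythroid cells. There were 0.253, 0.417 and 0.377 Aco1 UMIs per Ireb2 UMI in erythroid cells, against 0.952, 1.12 and 1.01 in endoderm. The ratio was 0.945, 0.968 and 1.06 in mesoderm and 0.674, 1.03 and 0.778 in endothelium. The erythroid samples lay below all others, with a two-sided exact permutation p = 0.1 against each class, the smallest possible, while the other classes overlapped.

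**Figure D3:**
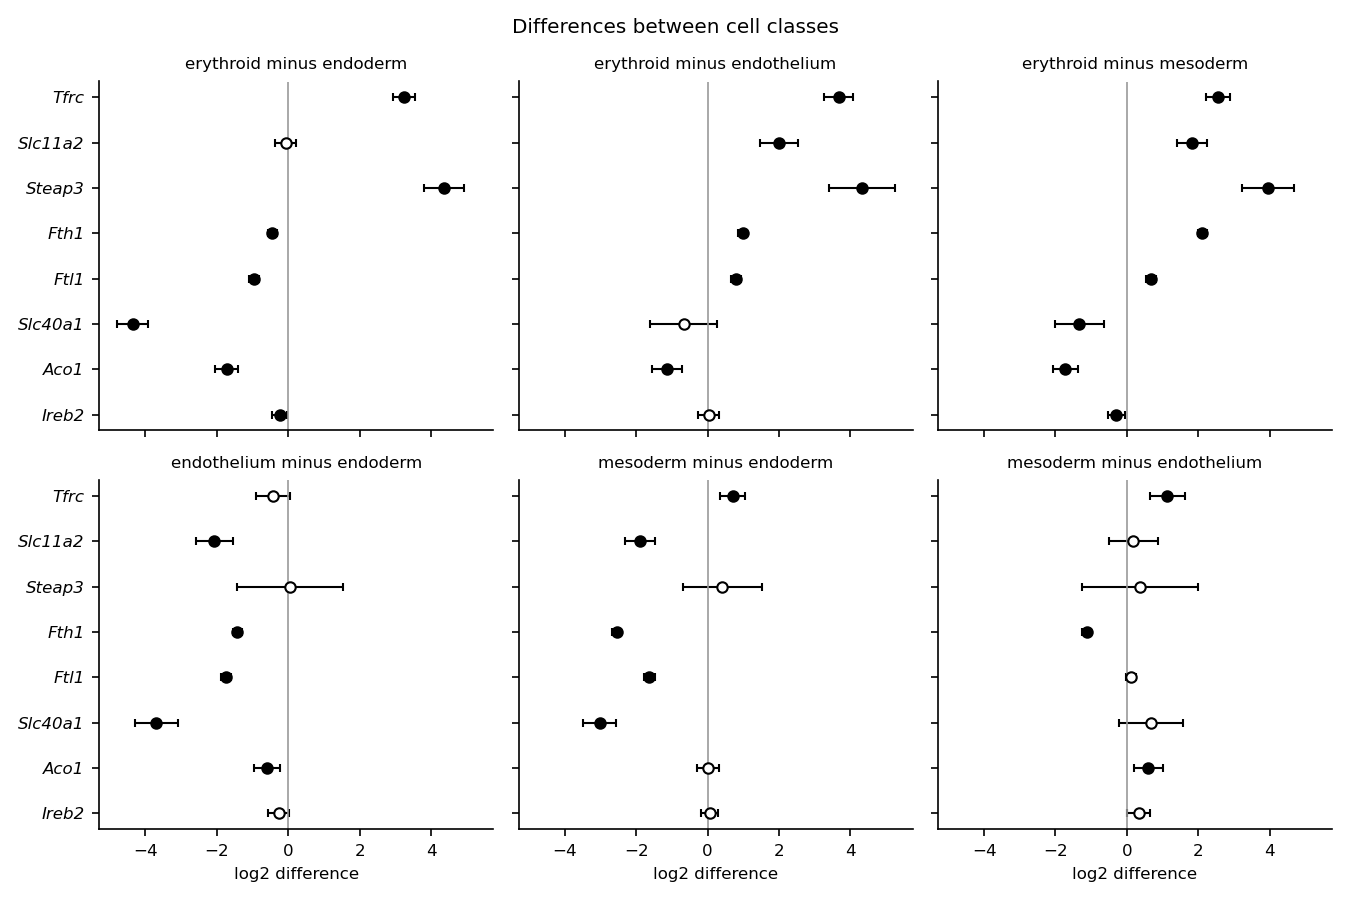
Fitted log2 difference (x axis) of the 8 tested iron genes (y axis) in 6 comparisons of cell classes. Points are edgeR estimates over 3 tagged samples per class and bars 95% intervals. Filled points passed the threshold of 0.05 on the adjusted p and open points did not. Steap3 and Slc40a1 lie farthest from 0 in the comparison of erythroid cells with endoderm.

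Levels in CPM are shares of all the RNA captured from a class, and globin transcripts took 6.34% to 8.88% of erythroid UMIs against 0.162% to 0.521% in the other classes. The fitted differences use trimmed mean of M-values scaling, which sets the median gene near 0. With library size scaling alone, the median of all genes moved to -0.25, -0.34 and -0.50 in erythroid cells against endoderm, endothelium and mesoderm, to 0.23 in mesoderm against endoderm, to 0.15 in mesoderm against endothelium and to 0.11 in endothelium against endoderm. The share of calls that were higher then went from 47.3% to 37.0%, from 48.5% to 28.6% and from 47.4% to 22.2% in the erythroid comparisons in the same order, and in mesoderm from 48.1% to 63.3% against endoderm and from 48.2% to 60.0% against endothelium. No called difference of the 8 genes between classes changed direction under it. It added 2 calls in mesoderm against endothelium, Ftl1 at 0.22 and Ireb2 at 0.44, and 1 against endoderm, Ireb2 at 0.31.

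Within the erythroid class, cells were split in each tagged sample at the median globin share, to ask whether iron genes move with globin. Of the 7 genes tested, Fth1 and Ftl1 were higher in cells with more globin and none was lower, beside a background of 1.83% of 9009 genes higher and 0.722% lower. Fth1 was at 5921, 5955 and 5777 CPM in cells with less globin and at 6472, 6082 and 6118 in cells with more. These values rose in each tagged sample, with a fitted difference of 0.23 (SE 0.03, edgeR adjusted p = 0.00192). Ftl1 was at 2365, 2257 and 2240 in cells with less globin and at 2397, 2277 and 2259 in cells with more, with a fitted difference of 0.16 (SE 0.03, adjusted p = 0.0273). Globin itself takes a larger share of the cells with more globin. With library size scaling the 2 differences were 0.08 and 0.01 and did not pass (edgeR adjusted p = 0.140 and 0.852). The median of all genes then moved to -0.15, and the share of calls that were higher went from 71.7% to 7.61%. Under DESeq2 that share was 91.1%, and with the globin genes left out of the fit it was 71.5%. Cells were also put in 3 equal groups by globin share, with levels in CPM taken without globin UMIs. Fth1 was then at 6041, 6300 and 5948 in the group with least globin and at 6836.5, 7070 and 6858 in that with most. Ftl1 was at 2304, 2357 and 2384 and at 2544, 2625 and 2604. The part of globin's share in the 2 calls was not tested. The Fth1 call was also lost without tagged sample 3 (0.22, adjusted p = 0.228), and the Ftl1 call without tagged sample 2 (0.16, adjusted p = 0.383), without tagged sample 3 (0.16, adjusted p = 0.417) and with doublet calls removed (0.14, adjusted p = 0.0692). Neither gene passed with the class limits doubled.

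Tfrc had the larger difference but more spread. It was at 158, 232 and 206 CPM in cells with less globin and at 189, 282 and 243 in cells with more. It was thus higher in cells with more globin in all 3 tagged samples, while the tagged samples themselves differed by more than that. The fitted difference was 0.40 (SE 0.14, edgeR adjusted p = 0.172). With the tagged sample as a block it was 0.41 and passed (adjusted p = 9.38e-10), in a fit that called 611 genes higher and 349 lower in place of 165 and 65. It also passed without tagged sample 1 (0.42, adjusted p = 0.00261). Over 3 equal groups of cells by globin share, from lowest to highest, Tfrc went from 155 to 169 to 195 in tagged sample 1, from 219 to 274 to 278 in tagged sample 2 and from 200 to 226 to 249 in tagged sample 3. Between the highest and the lowest group the difference was 0.51 (adjusted p = 0.0203).

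Neither iron regulatory protein gene passed the test between cells with more and less globin. Aco1 went from 8.31 to 5.24 to 4.41 CPM in tagged sample 1, from 13.2 to 8.52 to 6.63 in tagged sample 2 and from 9.83 to 8.5 to 5.97 in tagged sample 3. Those values rest on 7 to 54 UMIs each, and the difference between cells with more and less globin, -0.49 (SE 0.22), did not pass (edgeR adjusted p = 0.299). Ireb2 was at 22.4, 27.5 and 18.9 in tagged sample 1, at 26.0, 24.98 and 16.7 in tagged sample 2 and at 22.2, 24.6 and 17.5 in tagged sample 3. It was thus lowest in the group with most globin in each, with the middle group highest in tagged samples 1 and 3, and its difference of -0.14 did not pass (adjusted p = 0.632). Steap3 and Slc11a2 differed by 0.24 (adjusted p = 0.419) and 0.01 (adjusted p = 0.985). Slc40a1 had 54 UMIs in the whole class and, like Hfe, was not tested.

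**Figure D4:**
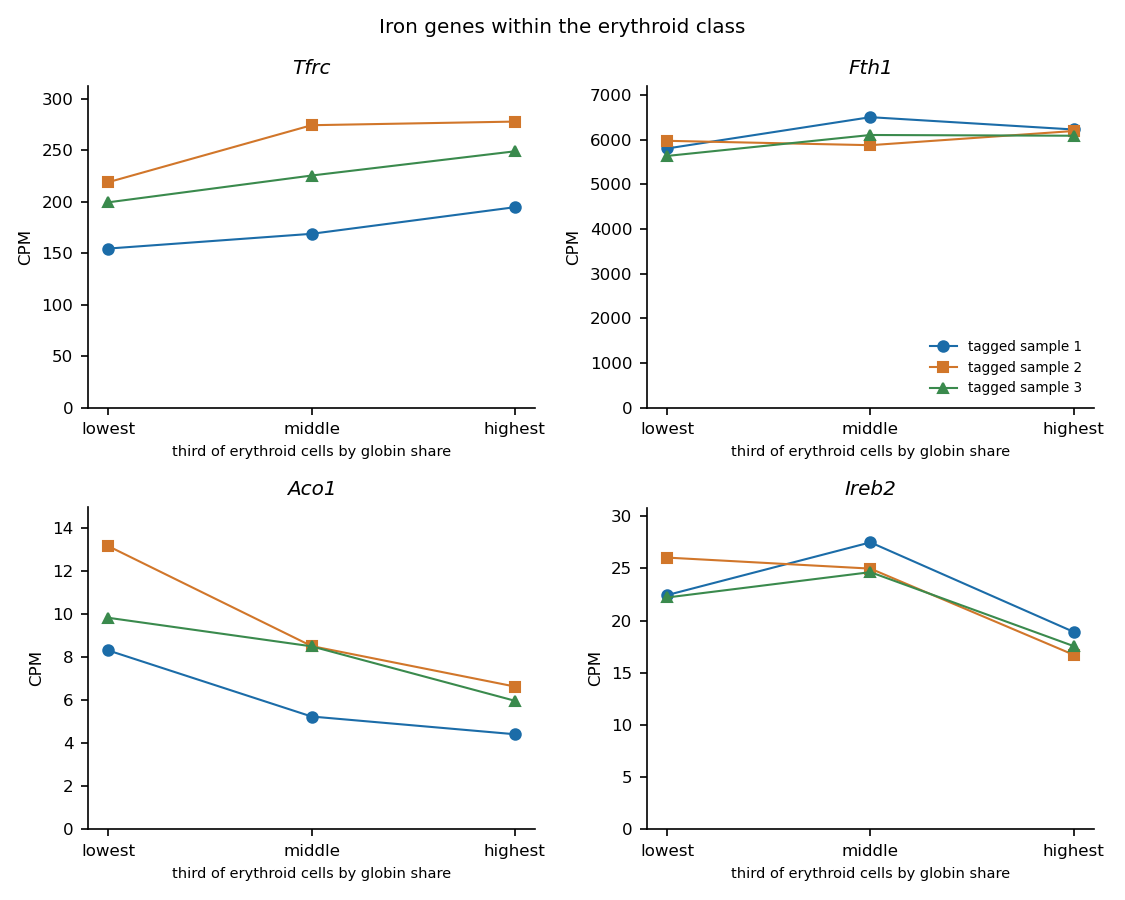
CPM (y axis, from 0) of Tfrc, Fth1, Aco1 and Ireb2 in erythroid cells, in 3 equal groups of cells by globin share (x axis). Each line is 1 tagged sample. Tfrc is higher and Aco1 lower in the group with most globin in all 3.

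Cells close to the erythroid limit were read in the same way. The 35 cells with 2% to 3% globin, just outside the class, had Tfrc at 174 CPM, pooled over samples. The 46 cells with 3% to 4%, just inside, had 188. By tagged sample Tfrc was at 168, 249 and 154 just outside and at 164, 174 and 221 just inside, so only tagged sample 3 was higher inside. Also pooled, Tfrc was at 128 in 43 cells with 1% to 2% globin, at 195 in 130 cells with 4% to 6% and at 243 in 453 cells with 6% or more. Tagged sample 1, the lowest in Tfrc in the erythroid class, gave 19 of these 43 cells and 35 of these 453, so the pooled values mix the tagged samples unequally. Steap3 was at 4.77, 18.8 and 21.8 in the 3 tagged samples in the cells with 1% to 2%, at 9.13, 11.6 and 33.3 with 2% to 3% and at 19.6, 20.4 and 23.7 with 3% to 4%. The tagged samples thus lay far apart outside the class and close together just inside it. Those values rest on only 23, 35 and 46 UMIs over the 3 tagged samples, from 6 to 19 cells in each. The part of counting error in that spread was not tested. Pooled, Fth1 was at 5212, 5662 and 5381 in the same groups. By tagged sample Fth1 was at 6347, 4267 and 4119 with 1% to 2%, and at 6719, 6119.5 and 4804 with 2% to 3%. It was at 5576, 5562 and 5063 with 3% to 4%, so from the first to the last group it fell in tagged sample 1 and rose in the others. Slc40a1 was at 3.42, 1.86 and 0.928, also pooled, from 6, 3 and 2 UMIs. Those of the cells with 2% to 4% globin all came from tagged sample 1. Tfrc was at 130, 129 and 124 in the cells with 1% to 2%, below the erythroid class in each tagged sample. The 188 cells that met no class rule are a mixture: 88 of them had under 0.5% globin, with Tfrc at 87.0 and Lama1, a parietal endoderm marker, at 302 CPM, both pooled. By tagged sample Tfrc was at 107, 77.3 and 39.8 in these cells and Lama1 at 28.4, 614 and 387, so Tfrc was highest where Lama1 was lowest. Lama1 was also at 449 CPM in tagged sample 2 among the cells with 1% to 2% globin, and at most 1.19 in the other tagged samples. The part of these other cells in the values was not tested.

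Within endoderm, cells were ranked by their share of Spp2 and Apoa4 UMIs and divided into 3 equal groups in each tagged sample, a description added after the data were seen. From the group with least to the group with most, Ftl1 went from 4154 to 4610 to 4840 CPM in tagged sample 1, from 4840 to 5380 to 5498 in tagged sample 2 and from 5149 to 5550 to 6101 in tagged sample 3. Fth1 went the other way, from 10154 to 10127 to 9880, from 9885 to 9130 to 8089 and from 10108 to 9919 to 8995. Slc40a1 was at 22.7, 34.3 and 48.4, then 38.1, 54.3 and 44.4, and then 36.9, 45.7 and 41.3, so the group with least was lowest in each tagged sample and the middle group highest in tagged samples 2 and 3. Tfrc was at 31.5, 34.0 and 19.8, then 27.4, 22.2 and 23.6, and then 30.9, 32.8 and 24.2, lower in the group with most than in the group with least in all 3. Mean depth was also lower in the group with least, at 44855, 59746 and 49965 UMIs per cell against 54856, 68767 and 56515, and its part in these values was not tested.

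Genes of the wider iron pathway, on lists of 48 genes outside the 9, were read the same way, and 35 passed the filter. In erythroid cells against endoderm 12 were higher and 16 lower, with a median of -0.11, and in mesoderm against endoderm 7 were higher and 19 lower, with a median of -0.38. In endothelium against endoderm 5 were higher and 15 lower, with a median of -0.34. In erythroid cells 18 were higher and 10 lower than in mesoderm (median 0.37), and 13 higher and 12 lower than in endothelium (median 0.04). In mesoderm against endothelium 6 were higher and 9 lower (median -0.15). Calls in either direction are frequent over all genes in these comparisons, as given above, so the lists are described by their named genes, those with at least 20 CPM in their highest class.

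Of 15 further uptake genes 10 were tested, and in erythroid cells 8 were lower than in endoderm and none higher. Over all genes tested, 38.6% were lower and 34.7% higher in that comparison. Trf, which encodes transferrin itself, was at 220, 388 and 417 CPM in endoderm and at 4.16 to 14.7 in the other classes, a log2 difference of -5.17 between erythroid cells and endoderm (edgeR adjusted p = 4.77e-12). Trf was thus highest in endoderm and Tfrc in erythroid cells. Cubn and Lrp2, endocytic receptors that bind many ligands, were at 738 ± 84.8 and 194 ± 28.6 in endoderm (SD, n = 3) and at 17.2 and 4.85 in erythroid cells. Snx3, a sorting nexin that recycles the transferrin receptor, was at 595 ± 26.0 in endoderm and 170 ± 8.46 in erythroid cells. Exoc6, part of the exocyst, was at 41.4 in endoderm, 23.8 in erythroid cells, 33.5 in endothelium and 4.52 in mesoderm. Slc39a8, a zinc and iron importer, shared the pattern of Slc11a2: 151 ± 20.7 in endoderm and 153 ± 6.75 in erythroid cells, against 30.2 ± 10.2 in endothelium and 20.9 ± 5.93 in mesoderm. The reductase genes Steap1 and Steap2 were highest in mesoderm, at 45.5, 72.0 and 81.8 and at 45.0, 56.8 and 83.9 in the 3 tagged samples, and at means of 0.792 and 0.710 in erythroid cells, the reverse of Steap3. Both were higher in mesoderm than in endoderm, by 2.29 and 0.92.

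Of the 7 genes of mitochondrial iron use, 6 were higher in erythroid cells in each comparison with another class, and none was lower. Over all genes tested, 34.7% were higher than in endoderm, 29.4% than in endothelium and 31.3% than in mesoderm. Slc25a37, mitoferrin 1, which imports iron into mitochondria, was at 423, 506 and 462 CPM in erythroid cells and at 29.4 ± 2.58 in endoderm, a log2 difference of 4.21. Glrx5, a glutaredoxin of iron-sulphur cluster assembly, was at 962 ± 30.3 in erythroid cells and 596 ± 42.2 in endoderm. Nfs1, the cysteine desulphurase, was at 33.8 ± 0.952 and 15.3 ± 0.891. Iscu, the scaffold of that assembly, was higher by 0.37, while Slc25a28, mitoferrin 2, did not pass at -0.12.

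Among genes of ferritin turnover and iron delivery, Ncoa4, the receptor that sends ferritin to lysosomes, was at 92.2 ± 4.63 CPM in erythroid cells and 77.2 ± 1.11 in endoderm, and was lower in endothelium and mesoderm, at 44.4 ± 10.2 and 59.0 ± 11.7. Fbxl5, which targets iron regulatory proteins for breakdown, was highest in endoderm, at 28.6 ± 0.386, and at 14.1 ± 0.905 in erythroid cells (-0.77 on the fitted scale). The iron chaperone genes Pcbp1 and Pcbp2 differed by 0.19 and 0.58 between erythroid cells and endoderm. Of 8 genes of export and systemic control only 3 were tested. Hamp2 and Hjv gave 0 UMIs in every class, which allows up to 0.0922 CPM in endoderm, and Hamp and Tmprss6 gave 1 UMI each, in erythroid cells. Neo1, a co-receptor, was highest in mesoderm at 34.2 ± 7.77.

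Haem handling genes split. Blvrb, a biliverdin reductase, was at 920, 987 and 995 CPM in erythroid cells and at 60.6 ± 7.25 in endoderm, a log2 difference of 4.22. Hmox1, the inducible haem oxygenase that breaks haem down and frees its iron, was lowest in erythroid cells, at 3.24, 2.71 and 2.50, and highest in endoderm, at 53.5, 50.8 and 52.6. The difference was -4.04, close in size to that of Slc40a1. Hmox2 was lower by less, at -0.72, and Lrp1, a receptor for haem-hemopexin, was highest in mesoderm at 66.8 ± 11.0. Of the other transcripts known for an iron-responsive element, Alas2, the erythroid enzyme that starts haem synthesis, was at 187 ± 29.3 in erythroid cells and 7.03 ± 0.504 in endoderm. Epas1 was highest in mesoderm at 28.7 ± 3.92.

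The genes most correlated with each member over the 12 class sums were sought among 6596 genes. This describes levels that share depth and class make-up, and a correlation does not reflect the size of a difference. Nearest to Tfrc were Mrps31, Cd3eap and Acp1 (Pearson r = 0.981, 0.980 and 0.979), and nearest to Steap3 were Cinp, Rhd and Nfe2 (0.981, 0.971 and 0.967). Mrps31 was at 65.6 CPM in erythroid cells and 38.9 in endoderm, beside means of 219 and 27.2 for Tfrc. Cinp was at 113 and 56.9, beside 22.1 and 1.24 for Steap3, so both differed by far less than the member. Slc11a2 was closest to Chchd10, Tuba4a and Ndufb9 (0.977, 0.974 and 0.960). Fth1 was closest to Abcg2, Samm50 and Tubb4b (0.967, 0.964 and 0.961), and Ftl1 to its pseudogene Ftl1-ps1, Iah1 and Sgk3 (0.994, 0.989 and 0.989). For Slc40a1 they were Hadh, Retreg1 and Atp6v0e (0.990, 0.990 and 0.989). Aco1 was closest to Sec62, Fzd4 and Ghr (0.982, 0.982 and 0.981), and Ireb2 to Cwc25, Ube2w and Fat1 (0.954, 0.953 and 0.951). Rhd, a red cell surface gene, was at 21.3 CPM in erythroid cells and 0.638 in endoderm, and Retreg1, an endoplasmic reticulum protein gene, at 53.6 in endoderm and 0.665 in erythroid cells.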

How the data were processed

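The authors deposited raw counts of UMIs per gene and cell, 1 matrix for each of 3 tagged samples (Cell Ranger 6.1.2, per the file headers), with GRCm38 as the build per the submitters' processing notes. They are not normalized. Gene counts summed to 22007477, 32890946 and 33114758 UMIs. The 1740 of 1817 cells that had 500 genes or more and no more than 10% mitochondrial UMIs were kept, no barcode was shared, and doublet calls (95, Scrublet in scanpy 1.11.5) stayed in.

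UMIs of each class were added up within each tagged sample and fitted once over 12 sums in edgeR 4.0.16 on R 4.3.3 (trimmed mean of M-values, filterByExpr, glmQLFit, glmQLFTest, two-sided). P-values were adjusted by Benjamini-Hochberg over the genes of each comparison, with a threshold of 0.05, and SE derived from the F statistic. Intervals on UMIs and shares cover counting error only.

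The sums of a tagged sample come from the same cells' source, so the numbers pair them. In the comparisons of classes, deviations of same-numbered sums correlated across genes by 0.0035 to 0.122, where genes are not independent. These correlations were not computed for the split by globin, where both groups of cells come from each tagged sample. There the main fit ignored the pairing, and it called 165 genes higher and 65 lower. With the tagged sample as a block the split by globin had 611 higher and 349 lower. Members, lists and tests were chosen with earlier results of these data known. All 9 genes were named, list genes from 20 CPM in their highest class, and the 3 most correlated genes per member (without class-defining, globin, mitochondrial, ribosomal and unnamed genes). Some genes of the wider pathway lists are not reported here.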

Additional observations from a re-analysis of the deposited data

How the results depend on the processing

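Of 36 called differences of the iron genes, 29 stayed called in the same direction under all alternatives run for them, and none reversed. The 7 that did not were Ireb2 in erythroid cells against endoderm and mesoderm, Slc40a1 in erythroid cells against mesoderm, Aco1 in endothelium against endoderm and in mesoderm against endothelium, and Fth1 and Ftl1 by globin. The replicate block changed no call other than Ireb2 in erythroid cells against endoderm and Tfrc by globin (0.41). With library size scaling the number called was 5 in place of 3 in mesoderm against endothelium and 0 in place of 2 by globin. By globin it was also 0 with the class limits doubled, 1 with doublet calls removed and 0 to 3 without each tagged sample, and Fth1 and Ftl1 did not pass without tagged sample 3. The cause was not tested.

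Signs turned only in differences that had not been called. Without each tagged sample the ranges were -0.19 to 0.0493 for Slc11a2 and -1.07 to 0.00771 for Slc40a1 (erythroid cells against endoderm and endothelium). They were -0.99 to 0.95, -0.37 to 0.81 and -0.29 to 1.80 for Steap3 in endothelium against endoderm, mesoderm against endoderm and mesoderm against endothelium. For Aco1 in mesoderm against endoderm the range was -0.0498 to 0.0357, and for Slc11a2 by globin -0.13 to 0.13. Ireb2 in erythroid cells against endothelium was -0.0248 under DESeq2 and -0.0225 in a fit of those classes only, -0.15 with limits doubled and with thinned sums, and -0.34 with library size scaling. Steap3 in endothelium against endoderm was -0.99 with limits doubled, -0.0262 with no filter and -0.0755 with thinned sums. With no filter, mesoderm against endoderm gave -0.0914 for Aco1 and -0.0372 for Ireb2. Slc11a2 by globin was -0.0281 with limits doubled, -0.13 with library size scaling and -0.15 with thinned sums.

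The 3 tagged samples limit precision for all genes, and counts limit Hfe, Steap3 outside erythroid cells and Slc40a1 outside endoderm.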
